A study of Mus musculus with 10 samples.

Results

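The genes described here are 45 genes of mitosis and the G2/M phase of the cell cycle: cyclins, mitotic kinases, kinesins, centromere and kinetochore genes, spindle checkpoint genes and spindle proteins, with the tubulin-binding gene Stmn1. They were taken by symbol from the 24981 genes of the RNA sequencing tables, and all 45 were found in the table of each cell type. The study asked how blocking Janus kinases, through which cytokine receptors act on STAT factors, changes 2 related lymphocytes of the mouse, natural killer (NK) cells and group 1 innate lymphoid cells (ILC1). Mice of the BALB/c strain received the Janus kinase inhibitor tofacitinib by mouth (30 mg/kg, 2 times per day for 7 days) or vehicle, and no genetic change is given for either group. The 4 groups are tofacitinib ILC1 (2 libraries), vehicle ILC1 (3 libraries), tofacitinib NK cells (2 libraries) and vehicle NK cells (3 libraries). ILC1 were sorted from liver as CD3- NKp46+ cells with dim DX5 and surface TRAIL, and NK cells were sorted from spleen as CD3- NKp46+ cells. Cells of several mice were pooled for a library, and the age of the mice is not given in the sources used here. The p-values rest on the spread between such pools, shared over genes.

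A cell that has copied its DNA enters mitosis when Cdk1 bound to cyclin B becomes active. Aurora and Polo-like kinases and kinesin motors then build the spindle, kinetochores tie the chromosomes to it, and the spindle checkpoint holds back the anaphase-promoting complex until every chromosome is attached. Most of these genes are transcribed mainly in G2 and mitosis and are held down in resting cells by the DREAM complex, which binds promoters at a short element called CHR, often with CCAAT boxes for the factor NF-Y beside it. In lymphocytes, cytokines that signal through Janus kinases are among the signals that drive division.

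Libraries had 29199973 to 79258362 alignments. Values are RPKM, reads scaled by exon length and by the mapped reads of the library, which carry no read counts. From exon lengths and alignments, members that were too low to be tested had about 93 reads per library at the median in NK cells and about 186 in ILC1. Some markers parted the labelled cell types: Eomes stood at 173 to 212 RPKM in the NK libraries and at 2.44 to 6.29 RPKM in the ILC1 libraries. Cxcr6 stood at 136 to 254 RPKM in ILC1, against 5.86 to 10.1 RPKM in NK cells. Not every listed marker parted them. Tbx21 stood at 149 to 216 RPKM in NK cells and 64.3 to 137 RPKM in ILC1. The sum of 6 ILC1 markers overlapped, at 845 to 1241 RPKM in NK cells and 839 to 1575.5 RPKM in ILC1. T cell markers summed to 130 to 259 RPKM in the CD3- ILC1, mostly from Cd3g (118 to 247 RPKM). B cell markers summed to 70.3 to 113 RPKM in NK cells. In ILC1 they stood at 14.9 and 23.9 RPKM with tofacitinib and 6.07 to 11.1 RPKM with vehicle. Libraries stood apart in ILC1. Tofacitinib replicate 1 held 176 RPKM summed over 12 neutrophil markers, against 3.18 to 17.5 RPKM in the other ILC1 libraries, and 283 RPKM over 11 erythroid markers, against 50.3 to 68.8 RPKM. It shares a sequencing run with vehicle replicate 2, and in these libraries the tested genes had a lower median (8.94 and 7.58 RPKM) than in the other ILC1 libraries (11.9 to 13.2 RPKM). In NK cells, vehicle replicate 1 held 240 RPKM of erythroid markers, against 60.1 to 102 RPKM in the other NK libraries, and was the highest library for 18 of the 45 members. The part of these other cells in the results was not tested, and the ILC1 differences within each shared run are given below.

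Since most of the members are known as targets of 1 promoter system, their promoters were searched first. The stretch from 250 bases before to 50 bases after the annotated start (RefSeq, GRCm38.p6) was read for 39 of the 45 genes, with 41 promoters in all. Aurkb, Ccna2, Cdca2, Smc4, Stmn1 and Tpx2 have no entry in the table. It was searched on both strands for CHR (TTTGAA or TTCGAA), for CCAAT and for the E2F sites TTTCGCGC, TTTGGCGC and TTTCCCGC, which are known from S phase promoters. A CHR was found in 80.5% of the member promoters, against 13.8% of the promoters of genes tested in ILC1 and 19.2% of all 32851 promoters. CCAAT was found in 80.5%, against 37.7% and 37.4%, and both motifs in 70.7%, against 5.49% and 7.52%. An E2F site stood in 1 member promoter (2.44%), that of Cdk1, against 34.4% of the promoters of 29 S phase genes. Only 1 CHR match overlapped a CCAAT match. The members are known cell cycle genes, so these shares describe the list and not the treatment. With no filter on level, 24 of 31 members with a CHR had a negative log2 change in ILC1 (median -1.02), and so did 8 of 8 without one (median -0.72). A match is a description of the letters and not a shown binding site. The 150 bases before the start are printed for 8 members that the results turn on, with CHR and CCAAT letters of either strand in capitals. Kif11, Mki67, Top2a, Cks1b, Cdc20 and Ccnb2 fell in ILC1 within runs, Bub3 holds both motifs and overlapped between the ILC1 groups, and Cks2 holds CCAAT without CHR and rose in NK cells. The CHR matches of Ccnb2 lie just outside the printed stretch, and Bub3 is shown by 1 of its 2 promoters. The reference is of another mouse strain than BALB/c.
Kif11 (chr19:37376232-37376381, plus strand): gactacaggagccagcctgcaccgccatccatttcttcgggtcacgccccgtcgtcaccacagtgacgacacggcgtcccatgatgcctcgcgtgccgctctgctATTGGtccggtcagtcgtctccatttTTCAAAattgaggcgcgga
Mki67 (chr7:135716380-135716529, minus strand): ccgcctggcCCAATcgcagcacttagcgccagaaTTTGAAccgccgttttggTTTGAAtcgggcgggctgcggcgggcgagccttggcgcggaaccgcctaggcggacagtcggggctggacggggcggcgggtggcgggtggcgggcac
Top2a (chr11:99024190-99024339, minus strand): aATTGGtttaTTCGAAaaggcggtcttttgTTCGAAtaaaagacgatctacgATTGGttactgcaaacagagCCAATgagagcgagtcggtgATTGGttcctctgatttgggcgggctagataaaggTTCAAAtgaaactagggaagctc
Cks1b (chr3:89418292-89418441, minus strand): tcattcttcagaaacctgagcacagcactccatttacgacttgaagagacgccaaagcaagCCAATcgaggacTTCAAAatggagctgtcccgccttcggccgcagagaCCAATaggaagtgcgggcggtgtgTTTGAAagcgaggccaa
Cdc20 (chr4:118437344-118437493, minus strand): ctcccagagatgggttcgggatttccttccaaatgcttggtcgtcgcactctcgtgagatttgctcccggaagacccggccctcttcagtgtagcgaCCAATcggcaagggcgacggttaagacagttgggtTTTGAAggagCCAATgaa
Ccnb2 (chr9:70421555-70421704, minus strand): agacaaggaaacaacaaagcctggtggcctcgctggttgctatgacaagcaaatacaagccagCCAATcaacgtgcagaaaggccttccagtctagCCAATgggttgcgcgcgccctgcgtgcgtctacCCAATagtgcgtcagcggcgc
Bub3 (chr7:131560220-131560369, plus strand): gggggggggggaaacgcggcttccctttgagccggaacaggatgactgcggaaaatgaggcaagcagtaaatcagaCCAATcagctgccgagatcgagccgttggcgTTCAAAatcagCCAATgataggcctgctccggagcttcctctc
Cks2 (chr13:51645082-51645231, plus strand): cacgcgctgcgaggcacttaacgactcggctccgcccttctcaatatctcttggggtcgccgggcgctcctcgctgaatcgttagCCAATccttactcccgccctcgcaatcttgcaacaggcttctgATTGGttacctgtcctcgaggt

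**Figure D1:**
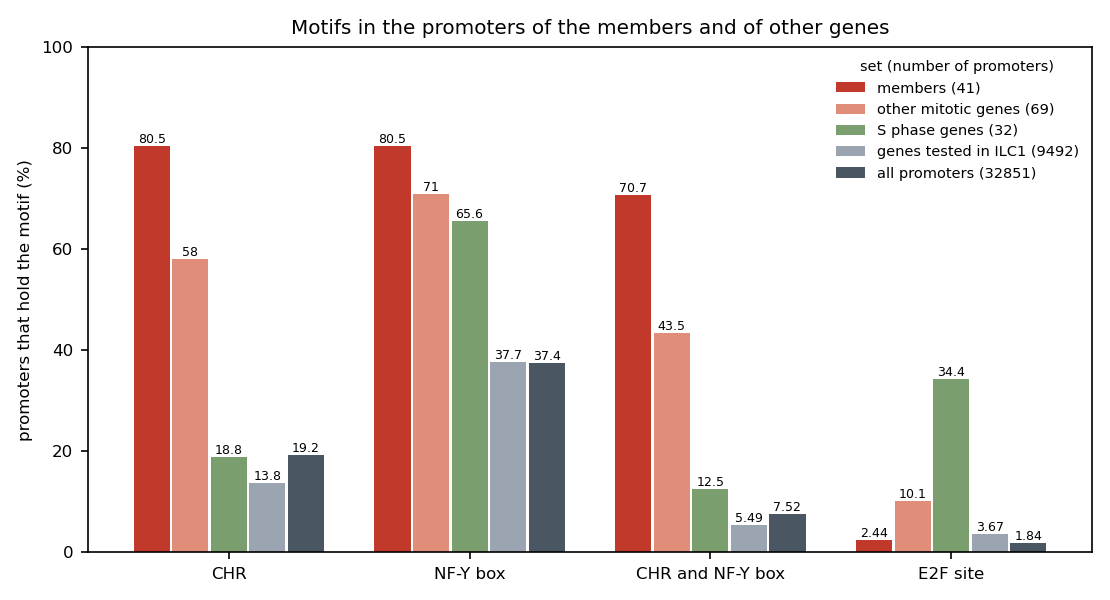
Percent of promoters (vertical axis) that hold a CHR, an NF-Y box (CCAAT), both, or an E2F site, with a bar for each gene set and the number of promoters in the legend. The members lead for CHR (80.5%) and for both motifs together (70.7%), and the S phase genes for E2F sites (34.4%).

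Levels differed widely among the members. Hmgb2, a chromatin protein, Smc4, a condensin subunit, and Bub3, a checkpoint protein, stood at 17.7 RPKM or more in every library, while Bub1, Kif4, Nek2, Ttk and Kif2c stayed at or under 1.18 RPKM in every library. In vehicle ILC1, 9 of the 45 members had a mean under 1 RPKM, and in vehicle NK cells 23 did. The vehicle mean was higher in ILC1 than in NK cells for 37 of the 45 members, with a median ratio of 1.98 and a range of 0.403 for Stmn1 to 9.87 for Bub1. With tofacitinib the median ratio of ILC1 to NK cells was 1.22. The median ratio of the tofacitinib ILC1 mean to the vehicle NK mean was 0.997. The tables of the 2 cell types were normalized separately, so these ratios have no test. In bulk RNA, fewer dividing cells in a pool and less RNA of a gene per cell cannot be told apart.

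In ILC1, both tofacitinib libraries lay below all vehicle libraries for most members, among them Ccnb2, Ccna2, Mki67, Top2a, Kif11 and Stmn1, while the abundant members Hmgb2, Smc4 and Bub3 overlapped between groups. With no filter on level, 37 of the 45 members had a negative log2 change and the median was -1.002, against -0.01 over all genes. No overlap, with tofacitinib the lower, was seen for 31 members, and with tofacitinib the higher for 0. Over all 23558 genes with a value, 3.56% lay below and 3.53% above. Split by the mean over the 10 libraries, 17 of 19 members under 1 RPKM lay below (3.39% of all genes of that level), 8 of 12 members between 1 and 3 RPKM (9.92%) and 6 of 14 over 3 RPKM (2.59%). The plot of all members by library shows this order, with Nuf2 and Ccnb2 at 1 end and Cenpa at the other.

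**Figure D2:**
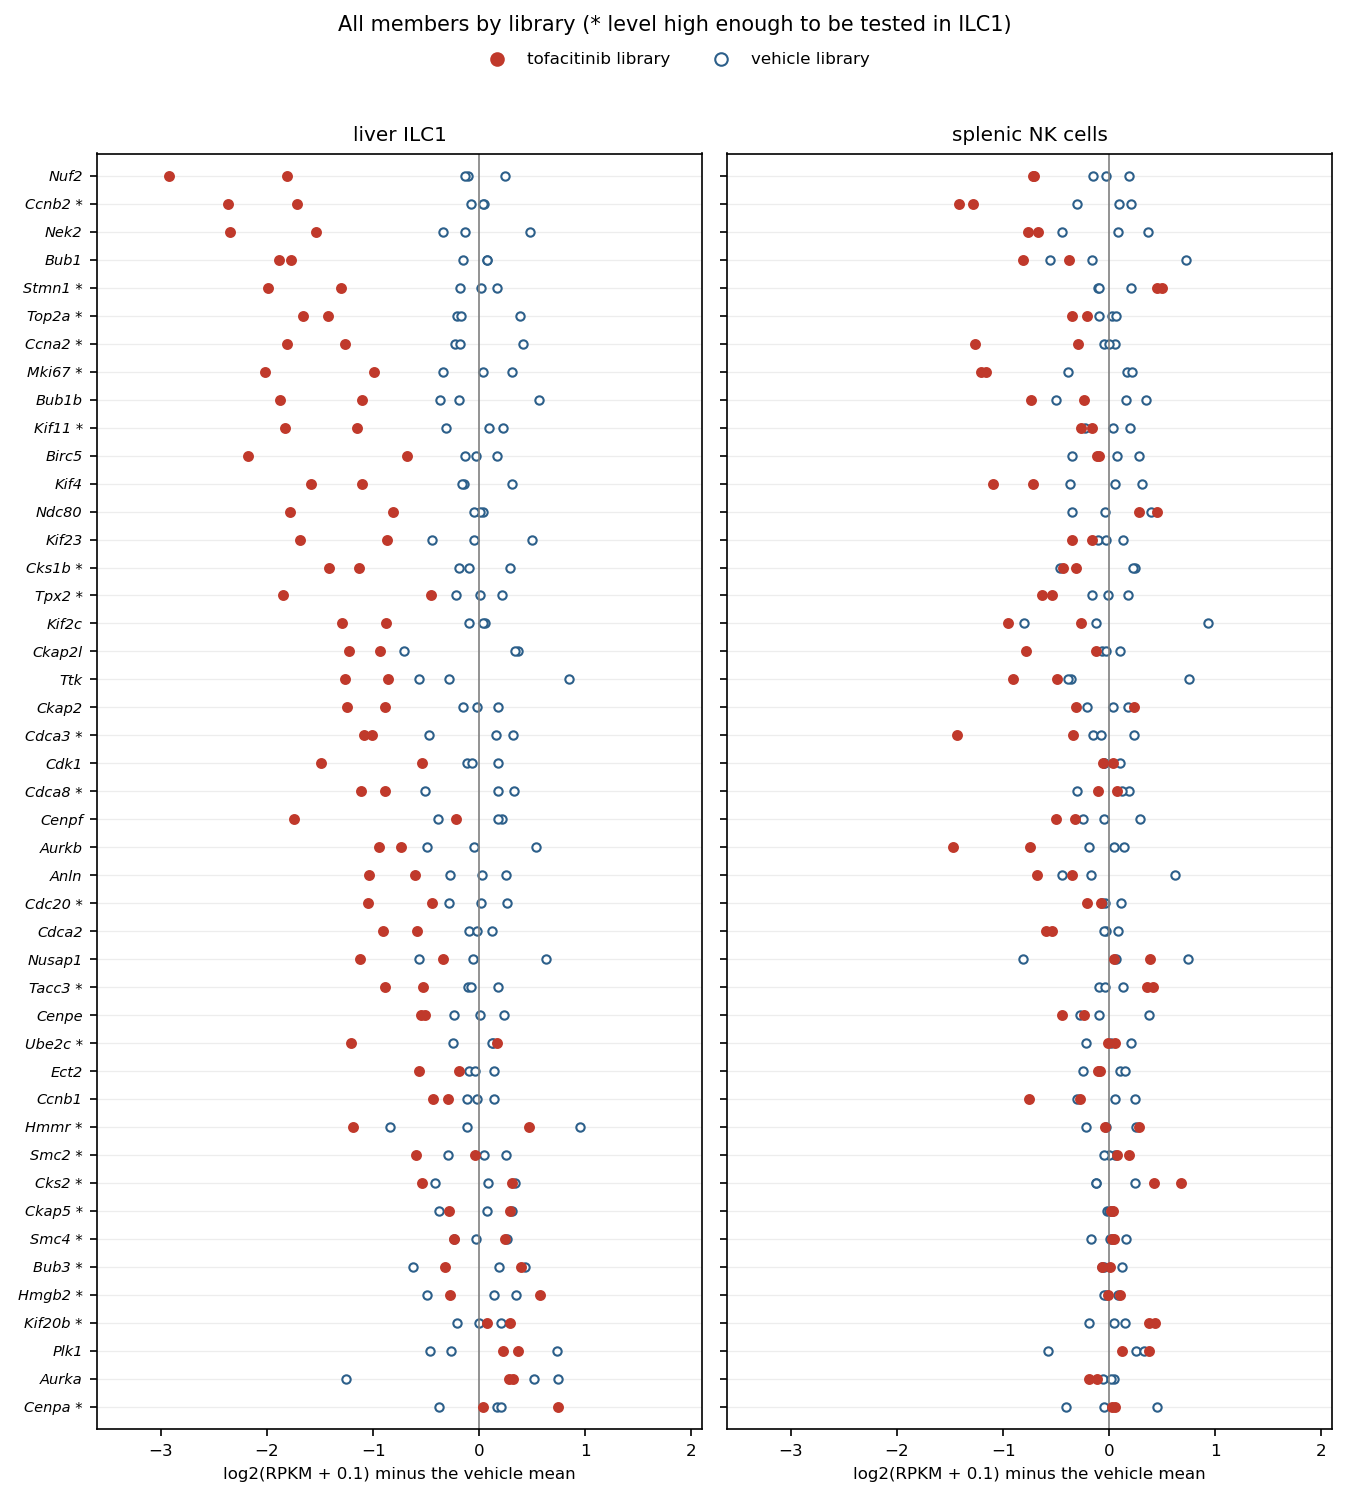
Each of the 45 members (rows, ordered by the ILC1 change) in liver ILC1 (left) and splenic NK cells (right). Points are libraries, drawn as log2(RPKM + 0.1) minus the mean of the 3 vehicle libraries; filled points are tofacitinib and open points vehicle, and asterisks mark the 22 members tested in ILC1. In ILC1 both filled points lie left of all open points for 31 members, and in NK cells for 17.

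The test was limma on log2(RPKM + 0.1), for genes whose mean on that scale was above 1 in at least 1 group, with p-values adjusted over all genes tested (Benjamini-Hochberg, threshold 0.05). Of the 45 members, 22 passed this filter in ILC1, and 6 of them (Ccna2, Ccnb2, Cdca3, Cdca8, Kif11 and Tpx2) passed only through the vehicle group, where they are high, so that counts and medians over the 22 are a description. With all 5 libraries and no term for the run, 1 member was called lower, Ccnb2, where 0.278% of the 9366 genes were called lower. It is one of those 6, and with the filter on the mean over all libraries 0 members were called lower. None was called higher, where 0.192% of genes were, and 0 had a positive change at an unadjusted p under 0.05. At a looser threshold (unadjusted p under 0.05 and a fold under 0.6 or above its inverse), 10 members were lower and 0 higher, against 1.41% and 0.811% of genes. The median log2 change of the 22 was -0.73, against 0.01 over the genes tested. Since libraries of 1 run deviated together, a second fit had the run as a block. Within runs 12 members were called lower and 0 higher, against 2.34% and 1.99% of genes. The 12 include the 6 that passed through vehicle alone, and with the filter on the mean 5 were called lower (Cks1b, Mki67, Stmn1, Tacc3 and Top2a). That fit rests on 2 pairs of libraries with 1 residual degree of freedom, and vehicle replicate 1, alone on its run, adds nothing to it. It also moved the median over all genes tested, to 0.10, against a median of -0.75 over the members. In both ILC1 fits the variance came from the trend over all genes alone. Their SEs and p-values therefore do not measure a gene's own spread between libraries. With each gene's own variance, the fit with no term for the run called 0 of 9366 genes. With no filter on low values limma called 0 members in either fit, as it called 0 genes of all 23558. A fit without both libraries of the run that stood apart has 1 tofacitinib library, assumed to vary like the vehicle libraries. Its calls are therefore not counted here.

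The cyclins differed in size of change, with Ccnb2 and Ccna2 ahead of Ccnb1. Ccnb2, cyclin B2, a partner of Cdk1, had 0.751 and 0.444 RPKM in tofacitinib ILC1, against 2.79, 2.77 and 2.55 RPKM in vehicle ILC1. The vehicle libraries lay close together and the groups were far apart. Its log2 change was -2.04 (SE 0.45, limma adjusted p = 0.00309), and -2.02 within runs (SE 0.30, limma adjusted p = 2.3e-09). The call needed all libraries but vehicle replicate 2: leaving out any of the other libraries gave adjusted p-values of 0.101 to 0.999 by limma, at log2 changes of -2.36 to -1.72. Ccna2, cyclin A2, which acts from S phase to early mitosis, had 0.758 and 0.488 RPKM with tofacitinib and 1.66, 1.72 and 2.64 RPKM with vehicle. With no term for the run its limma adjusted p was 0.0998, and within runs it was called (log2 change -1.65, SE 0.31, limma adjusted p = 1.49e-05). Cks1b, a small subunit that binds Cdk complexes, had 3.14 and 3.83 RPKM with tofacitinib, against 10.4, 7.45 and 7.98 RPKM with vehicle, and fell within runs by 1.13 on the log2 scale (SE 0.22, limma adjusted p = 4.78e-05). Its relative Cks2 had 7.06 and 12.8 RPKM with tofacitinib and 13.1, 7.71 and 10.9 RPKM with vehicle, so the groups overlapped. Cdk1 itself and Ccnb1, cyclin B1, were too low for the test, at 0.324 to 1.38 RPKM in every ILC1 library. Both of their tofacitinib libraries lay below all vehicle libraries, with means of 0.521 and 0.947 RPKM with tofacitinib, against 1.10 and 1.25 RPKM with vehicle.

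Among the genes of chromosome structure, Mki67 and Top2a were lower, and Hmgb2, Smc4 and Smc2 overlapped between groups. Mki67 encodes Ki-67, which coats mitotic chromosomes and is the standard marker of dividing cells. It had 2.82 and 1.32 RPKM in tofacitinib ILC1, against 5.83, 4.46 and 7.07 RPKM in vehicle ILC1. Top2a, topoisomerase II alpha, which untangles DNA, had 2.54 and 2.15 RPKM with tofacitinib and 6.05, 6.20 and 9.18 RPKM with vehicle. Neither gene's groups overlapped. With no term for the run, the log2 changes were -1.51 (SE 0.46) for Mki67 and -1.54 (SE 0.46) for Top2a, with limma adjusted p-values of 0.148 and 0.132. Within runs they were -1.49 (SE 0.24) and -1.65 (SE 0.23), with limma adjusted p-values of 8.16e-08 and 2.88e-10. The differences in the 2 shared runs were -0.64 and -2.33 for Mki67 and -1.25 and -2.04 for Top2a, a spread that these SEs do not measure. Hmgb2, by contrast, had 55.8 and 100.5 RPKM with tofacitinib, against 74.4, 48.0 and 86.0 RPKM with vehicle. The condensin subunits Smc4 and Smc2 also overlapped between groups, with means of 40.3 and 7.15 RPKM with tofacitinib and 40.1 and 8.86 RPKM with vehicle. In Hmgb2 and Smc4, libraries of the same run were low together.

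**Figure D3:**
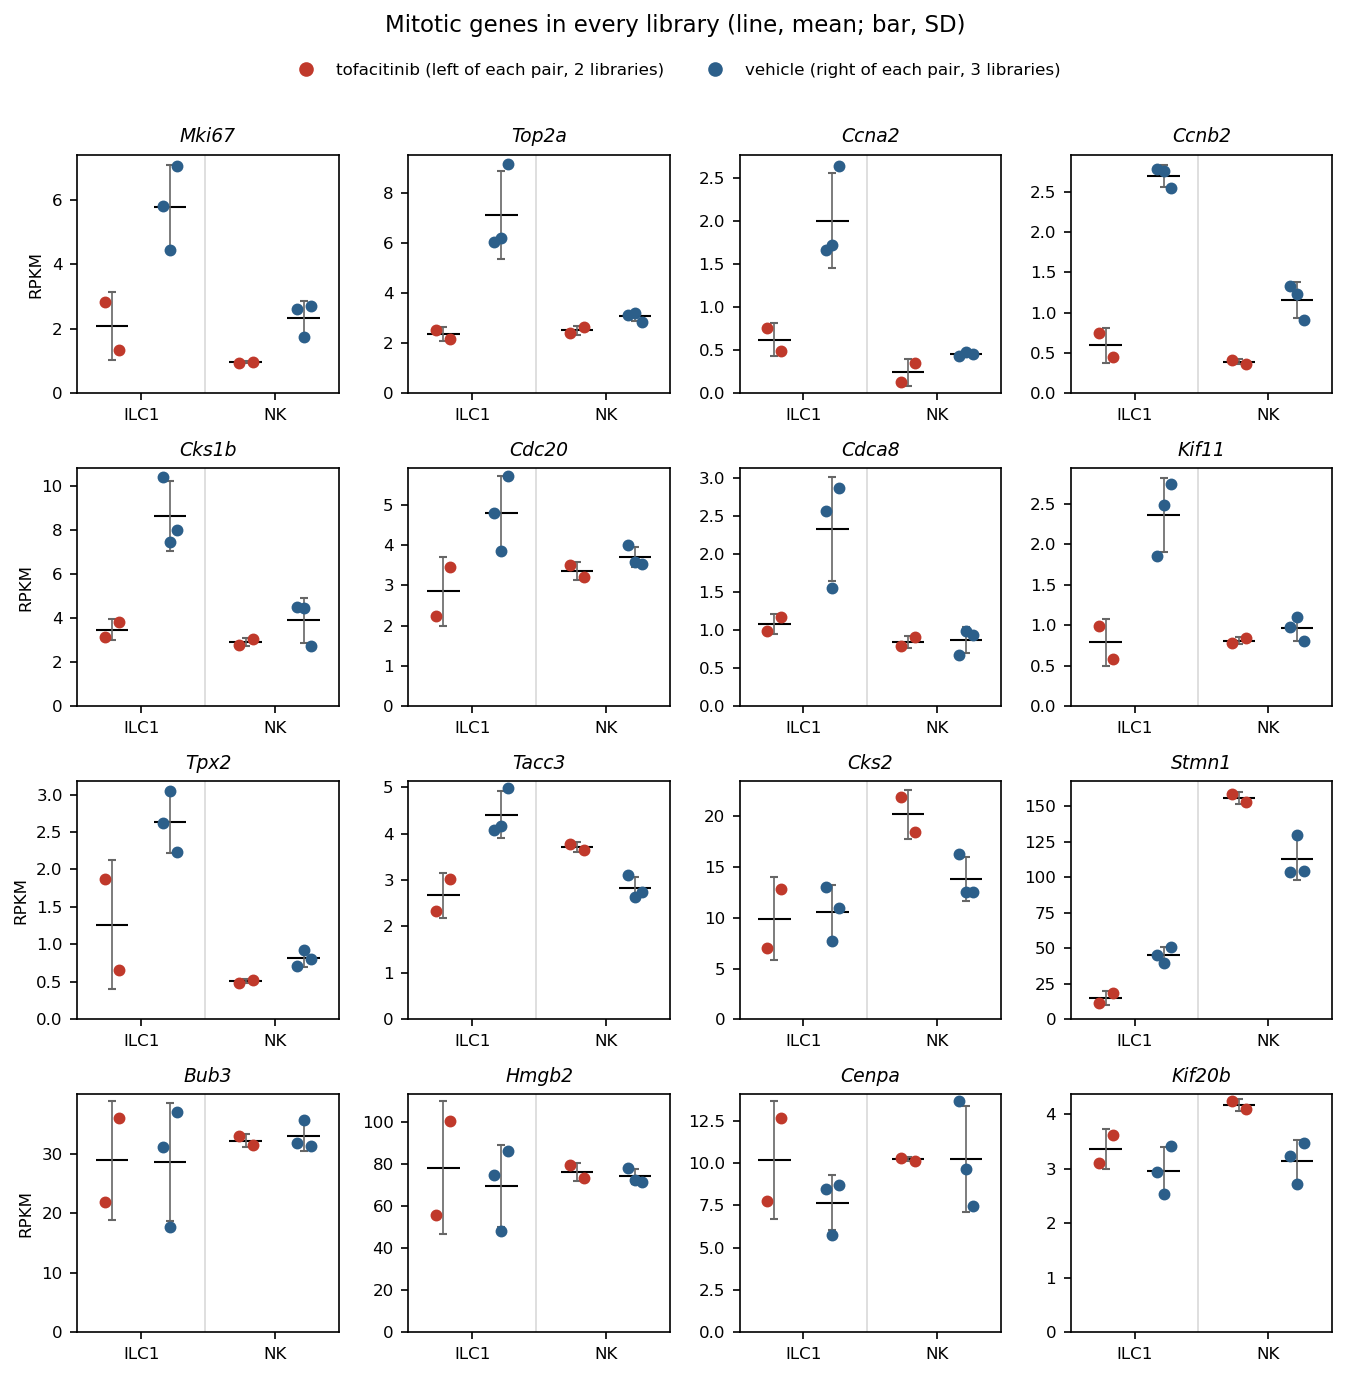
RPKM (vertical axis, from 0) of 16 members in each library. Within each cell type tofacitinib (2 libraries) stands left of vehicle (3 libraries); lines are means and bars SD. In ILC1 the tofacitinib points of the 10 genes from Mki67 to Tacc3 lie below all vehicle points, as do those of Stmn1, while Cks2, Bub3, Hmgb2, Cenpa and Kif20b overlap.

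Stmn1 encodes stathmin, which binds free tubulin and destabilizes microtubules. In tofacitinib ILC1 it had 11.3 and 18.2 RPKM, against 45.6, 39.8 and 50.8 RPKM in vehicle ILC1. No vehicle library came near the tofacitinib libraries. The log2 change was -1.65 (SE 0.52, limma adjusted p = 0.180) and within runs -1.64 (SE 0.23, limma adjusted p = 1.33e-10). Tpx2, which activates Aurora A on the spindle, had 1.88 and 0.653 RPKM with tofacitinib and 2.62, 3.04 and 2.23 RPKM with vehicle. Its tofacitinib libraries were far apart, and its within-run change was -1.15 (SE 0.28, limma adjusted p = 0.00208). Tacc3, a spindle protein that works with clathrin and Ckap5, had 2.33 and 3.02 RPKM with tofacitinib, against 4.08, 4.16 and 4.99 RPKM with vehicle, and fell within runs by 0.76 on the log2 scale (SE 0.24, limma adjusted p = 0.0395). Ckap5, a microtubule polymerase, overlapped, at 6.73 and 10.1 RPKM with tofacitinib and 8.65, 6.29 and 10.2 RPKM with vehicle. Hmmr, a spindle-associated receptor for hyaluronan, differed more between runs than between groups. It had 4.37 and 1.32 RPKM with tofacitinib, against 2.87, 6.15 and 1.70 RPKM with vehicle, and both high values came from the run that stood apart. Ckap2, Ckap2l and Nusap1, which bundle or stabilize spindle microtubules, were under the filter at 0.312 to 1.97 RPKM. In Ckap2 and Ckap2l the groups did not overlap, and in Nusap1 they did.

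Of the kinesins, Kif11, the motor that pushes the spindle poles apart, had 0.993 and 0.585 RPKM in tofacitinib ILC1, against 1.85, 2.49 and 2.75 RPKM in vehicle ILC1. It fell within runs by 1.65 on the log2 scale (SE 0.30, limma adjusted p = 3.26e-06). Kif20b, a motor of late mitosis, had 3.10 and 3.62 RPKM with tofacitinib and 2.93, 2.54 and 3.42 RPKM with vehicle, and its groups overlapped. The other motors were too low for the filter. Kif23, a part of centralspindlin, averaged 0.442 ± 0.211 RPKM with tofacitinib (SD, n = 2) and 1.21 ± 0.437 RPKM with vehicle (SD, n = 3). Kif4, a chromosome-bound kinesin, averaged 0.226 ± 0.0754 RPKM with tofacitinib and 0.726 ± 0.161 RPKM with vehicle. Kif2c, which takes microtubules apart, averaged 0.155 ± 0.0519 RPKM with tofacitinib and 0.435 ± 0.0302 RPKM with vehicle. For all 3 the tofacitinib libraries lay below the vehicle libraries.

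In the checkpoint and anaphase-promoting complex group, Cdc20, which activates that complex, had 2.25 and 3.45 RPKM with tofacitinib in ILC1, against 4.81, 3.86 and 5.72 RPKM with vehicle. The groups were apart by a small gap, and the within-run change was -0.73 (SE 0.24, limma adjusted p = 0.0467). Bub3, by far the most abundant of the group, had 21.9 and 36.0 RPKM with tofacitinib and 31.1, 17.7 and 37.0 RPKM with vehicle, which is the same range. Ube2c, the ubiquitin-conjugating enzyme of the complex, had 3.68 RPKM in tofacitinib replicate 1 and 1.36 RPKM in tofacitinib replicate 2, against 2.73 to 3.58 RPKM in vehicle ILC1. The checkpoint kinases Bub1 and Ttk and the related Bub1b were too low for the filter. They had 0.117 to 0.759 RPKM in the tofacitinib libraries, against 0.251 to 2.62 RPKM in the vehicle libraries, and in each gene the groups did not overlap.

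The passenger complex, which corrects faulty chromosome attachments, was represented by Cdca8 (borealin), Aurkb (its kinase) and Birc5 (survivin). Cdca8 had 0.986 and 1.17 RPKM in tofacitinib ILC1, against 2.56, 1.55 and 2.86 RPKM in vehicle ILC1, and fell within runs by 0.91 on the log2 scale (SE 0.29, limma adjusted p = 0.0378). Aurkb averaged 0.734 ± 0.0843 RPKM with tofacitinib and 1.46 ± 0.556 RPKM with vehicle, and Birc5 0.630 ± 0.493 RPKM with tofacitinib and 1.64 ± 0.191 RPKM with vehicle (SD, n = 2 and 3). Neither passed the filter, and in neither did the groups overlap. Cdca3, a protein that helps mitosis begin, had 0.928 and 0.876 RPKM with tofacitinib, against 2.21, 1.39 and 2.47 RPKM with vehicle, with a within-run change of -0.97 (SE 0.30, limma adjusted p = 0.0337). Cdca2, which brings a phosphatase to chromosomes at mitotic exit, was lower in both tofacitinib libraries, at 0.606 and 0.782 RPKM, than in the vehicle libraries, at 1.14 to 1.34 RPKM.

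The kinases that act at the centrosome were mixed. Aurka, Aurora A, had 1.71 and 1.75 RPKM in tofacitinib ILC1, against 2.02, 0.524 and 2.39 RPKM in vehicle ILC1, so that vehicle replicate 2 alone was low. Plk1, the Polo-like kinase of mitotic entry, averaged 1.44 ± 0.104 RPKM with tofacitinib and 1.25 ± 0.644 RPKM with vehicle, with overlap. Nek2, which parts the centrosomes, was lower at 0.216 and 0.0802 RPKM with tofacitinib, against 0.621, 0.735 and 1.18 RPKM with vehicle. All 3 were under the filter.

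The centromere group parted by level. Cenpa, the histone H3 variant that marks centromeres, had 7.73 and 12.6 RPKM in tofacitinib ILC1, against 8.49, 5.78 and 8.73 RPKM in vehicle ILC1. Its log2 change of 0.39 (SE 0.48) had a limma adjusted p of 1.00. The outer kinetochore proteins Ndc80 and Nuf2, which bind each other, were both lower. Nuf2 had 0.465 and 0.160 RPKM with tofacitinib, against 1.73, 1.70 and 2.23 RPKM with vehicle, and Ndc80 had 0.467 and 1.01 RPKM with tofacitinib, against 1.90, 1.85 and 1.79 RPKM with vehicle. Cenpe, a kinetochore motor, was lower without overlap (0.506 to 0.524 RPKM with tofacitinib, 0.653 to 0.944 RPKM with vehicle), and Cenpf overlapped. Of the cytokinesis genes, Ect2, which activates RhoA at the cleavage furrow, had 1.04 and 1.38 RPKM with tofacitinib and 1.76, 1.48 and 1.55 RPKM with vehicle. Anln, anillin, which organizes the furrow, averaged 0.273 ± 0.0791 RPKM with tofacitinib and 0.559 ± 0.118 RPKM with vehicle (SD, n = 2 and 3), also without overlap.

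With the filter lowered to a group mean above -1 on the log2(RPKM + 0.1) scale, an alternative chosen after seeing the data, all 45 members could be tested in ILC1. Then limma called Ccnb2, Nek2 and Nuf2 lower with no term for the run, where 0.346% of 11554 genes were called lower. It called 0 members higher, where 0.381% were. Nuf2 had the largest fall of all members (log2 change -2.37, limma adjusted p = 0.000669). Within runs 21 members were called lower and 0 higher, against 2.53% and 2.14% of genes. The 9 added to the list above were the kinetochore genes Ndc80 and Nuf2, the checkpoint genes Bub1 and Bub1b, the kinesins Kif23 and Kif4, and Birc5, Nek2 and Nusap1. Of the 45, 9 entered this lower filter only through the vehicle group, among them Bub1, Kif4, Nek2 and Nuf2, so these calls rest on genes let in by a high vehicle level.

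The differences within the shared runs were not of equal size. Tofacitinib replicate 1 was lower than vehicle replicate 2 for 36 of the 45 members, with a median log2 difference of -0.54. Tofacitinib replicate 2 was lower than vehicle replicate 3 for 41 members, with a median of -1.33. Both differences were negative for 35 members and positive for 3. Among the 9366 genes tested, 19.4% were lower in both runs and 38.8% were higher in both. These shares cover only genes that passed the filter, which 23 of the 45 members did not, so the sets are unlike in level. Mki67 shows the gap: its differences were -0.64 and -2.33, while Stmn1 had -1.81 and -1.47. In the run with the smaller differences, the tofacitinib library is the one with the high neutrophil and erythroid markers, and their part in the gap was not tested. Without that library the median change of the tested members was -0.99.

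**Figure D4:**
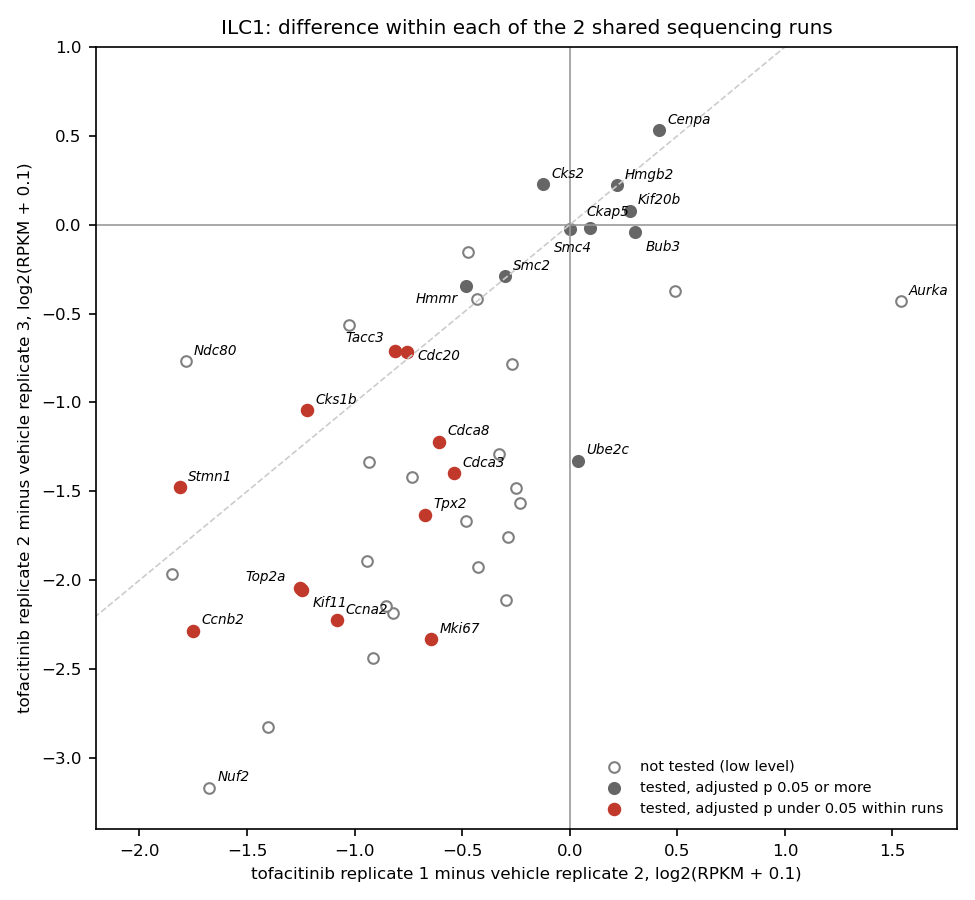
Log2 difference of each member within the run of tofacitinib replicate 1 (horizontal axis) and within the run of tofacitinib replicate 2 (vertical axis); the dashed line marks equal differences. Red points are the 12 members called lower by limma with the run as a block, grey points other tested members and open points members under the filter. Most members (35 of 45) lie at the lower left, and Cenpa, Hmgb2 and Kif20b at the upper right.

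In splenic NK cells members were called in both directions. Of the 45 members, 16 passed the filter, and 1 of these passed only through the vehicle group (Mki67) and 1 only through the tofacitinib group (Hmmr). Limma called 1 lower, Mki67, and 2 higher, Stmn1 and Cks2, where 3.02% and 1.79% of the 9472 genes were called lower and higher. At the looser threshold 1 member was lower and 0 higher, against 1.1% and 0.56% of genes. The median log2 change of the 16 was 0.04, against -0.01 over all genes tested. With the filter on the mean over all libraries, 0 members were called lower and 1 higher (Stmn1). Over all 45 members with no filter, the tofacitinib libraries lay below every vehicle library for 17 members and above for 5, where 13.7% and 15.3% of all genes did so. By level, 9 of 19 members under 1 RPKM lay below (4.30% of genes of that level), 5 of 12 between 1 and 3 RPKM (15.3%) and 3 of 14 over 3 RPKM (24.5%).

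Mki67 had 0.942 and 0.976 RPKM in tofacitinib NK cells, against 2.60, 1.73 and 2.69 RPKM in vehicle NK cells. The tofacitinib libraries were nearly equal and well below the lowest vehicle library. The log2 change was -1.18 (SE 0.24, limma adjusted p = 0.0289). Without vehicle replicate 1, the library with the most erythroid marker RNA, it was -1.10 with a limma adjusted p of 0.0934. Leaving out any library but vehicle replicate 2 ended the call, at log2 changes of -1.20 to -1.07. Without vehicle replicate 2 the log2 change was -1.38 and the call held. Ccnb2 moved with Mki67 but was too low for the filter, at 0.409 and 0.366 RPKM with tofacitinib, against 1.33, 1.23 and 0.910 RPKM with vehicle. At the lower filter limma called it (log2 change -1.35, SE 0.26, adjusted p = 0.0321), and there 2 members were lower and 0 higher, against 2.12% and 0.972% of genes. Ccnb2 entered that filter only through its vehicle group.

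Both members called higher in NK cells were not higher in ILC1. Stmn1 had 159 and 153 RPKM in tofacitinib NK cells, against 104, 130 and 105 RPKM in vehicle NK cells. Both tofacitinib libraries were above all vehicle libraries, and the log2 change was 0.48 (SE 0.11, limma adjusted p = 0.0481). Cks2 had 21.9 and 18.5 RPKM with tofacitinib and 16.3, 12.6 and 12.6 RPKM with vehicle (log2 change 0.55, SE 0.13, limma adjusted p = 0.0499). Both calls lie at the threshold. Leaving out single libraries gave limma adjusted p-values of 0.00282 to 0.393 for Stmn1 and 0.0276 to 0.416 for Cks2, while their log2 changes stayed between 0.42 and 0.67. Kif20b (4.24 and 4.09 RPKM with tofacitinib, against 3.23, 2.73 and 3.47 RPKM with vehicle) and Tacc3 (3.78 and 3.64 RPKM, against 3.11, 2.64 and 2.75 RPKM) also lay above without overlap. Their limma adjusted p-values were 0.136 and 0.142.

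None of the other members called in ILC1 was called in NK cells at the same filter, which several of them did not pass there. Top2a had 2.39 and 2.64 RPKM in tofacitinib NK cells, against 3.14, 3.22 and 2.86 RPKM in vehicle NK cells, and its change was -0.28 (log2, SE 0.14, limma adjusted p = 0.269). Kif11 had 0.776 and 0.841 RPKM with tofacitinib and 0.975, 1.10 and 0.799 RPKM with vehicle, with overlap. Cks1b had 2.77 and 3.04 RPKM with tofacitinib, against 4.50, 4.45 and 2.72 RPKM with vehicle, where vehicle replicate 3 stood with the tofacitinib libraries. Cdc20 was at 3.51 and 3.20 RPKM with tofacitinib and at 3.99, 3.59 and 3.54 RPKM with vehicle, which left almost no gap. Of the abundant members, Hmgb2, Bub3 and Cenpa overlapped. Hmgb2 had 79.2 and 73.2 RPKM with tofacitinib, against 78.1, 72.4 and 71.5 RPKM with vehicle. Bub3 had 33.1 and 31.4 RPKM with tofacitinib and 31.8, 35.7 and 31.4 RPKM with vehicle, and Cenpa had 10.3 and 10.1 RPKM with tofacitinib and 13.6, 9.64 and 7.48 RPKM with vehicle. Lower members with no overlap included Ccna2 (0.130 and 0.351 RPKM with tofacitinib, against 0.432, 0.473 and 0.452 RPKM with vehicle), Tpx2 (0.487 and 0.524 RPKM, against 0.710, 0.929 and 0.802 RPKM) and Cdca3 (0.232 and 0.608 RPKM, against 0.708, 0.955 and 0.748 RPKM). The rest of the 17 were Aurka, Aurkb, Cdca2, Cenpf, Ckap2l, Kif23, Kif4, Nuf2, Nek2 and Ttk, besides Mki67, Top2a, Ccnb2 and Cdc20. Aurka differed little, at 1.49 and 1.41 RPKM with tofacitinib and 1.55, 1.68 and 1.65 RPKM with vehicle. Cdca8 (0.785 and 0.903 RPKM with tofacitinib, 0.672, 0.988 and 0.938 RPKM with vehicle) and Ect2 (0.981 and 0.999 RPKM with tofacitinib, 1.15, 1.20 and 0.881 RPKM with vehicle) overlapped. Bub1 was listed at 0 in NK tofacitinib replicate 1.

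The 2 cell types share no libraries, so their responses can be set side by side. With no filter, 29 of the 45 members had negative changes in both, 8 were negative in ILC1 and positive in NK cells, 2 were the other way round, and 6 were positive in both. The change was the more negative in ILC1 for 38 members. The offset of 0.1 shrinks changes at low RPKM, and most members had the lower vehicle mean in NK cells. Kif4 fell to 0.219 of its vehicle mean in NK cells and 0.311 in ILC1, yet its log2 changes were -0.91 and -1.34. Bub1 fell to 0.200 and 0.198, with log2 changes of -0.59 and -1.83. The count of 38 therefore does not measure how much stronger the ILC1 response was. The test of the difference itself was an interaction term, fitted with limma to the 10 libraries together; 8981 genes entered it, 16 of them members. It called 1 member, Stmn1, where 0.0445% of genes were called with the lower and 0.1% with the higher response in ILC1. In this fit too the variance came from the trend over all genes alone. Its SEs and p-values therefore do not measure a gene's own spread between libraries. The response of Stmn1 in ILC1 minus that in NK cells was -2.12 on the log2 scale (SE 0.50, limma adjusted p = 0.0123). Both ILC1 tofacitinib libraries were below all ILC1 vehicle libraries and both NK tofacitinib libraries above all NK vehicle libraries. Tacc3 shared that pattern, with a difference of -1.09 (SE 0.45), and Top2a had -1.26 (SE 0.45). The limma adjusted p was 1.00 for each, and with run and replicate letter as a block limma called Stmn1, Tacc3 and Top2a. For Mki67 the difference was -0.32 (SE 0.45, limma adjusted p = 1.00), so unequal falls in the cell types were not detectable for this gene. The Stmn1 call was lost when any single NK library, ILC1 tofacitinib replicate 1 or ILC1 vehicle replicate 1 was left out, with limma adjusted p-values up to 0.657, while the difference stayed between -2.47 and -1.78.

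**Figure D5:**
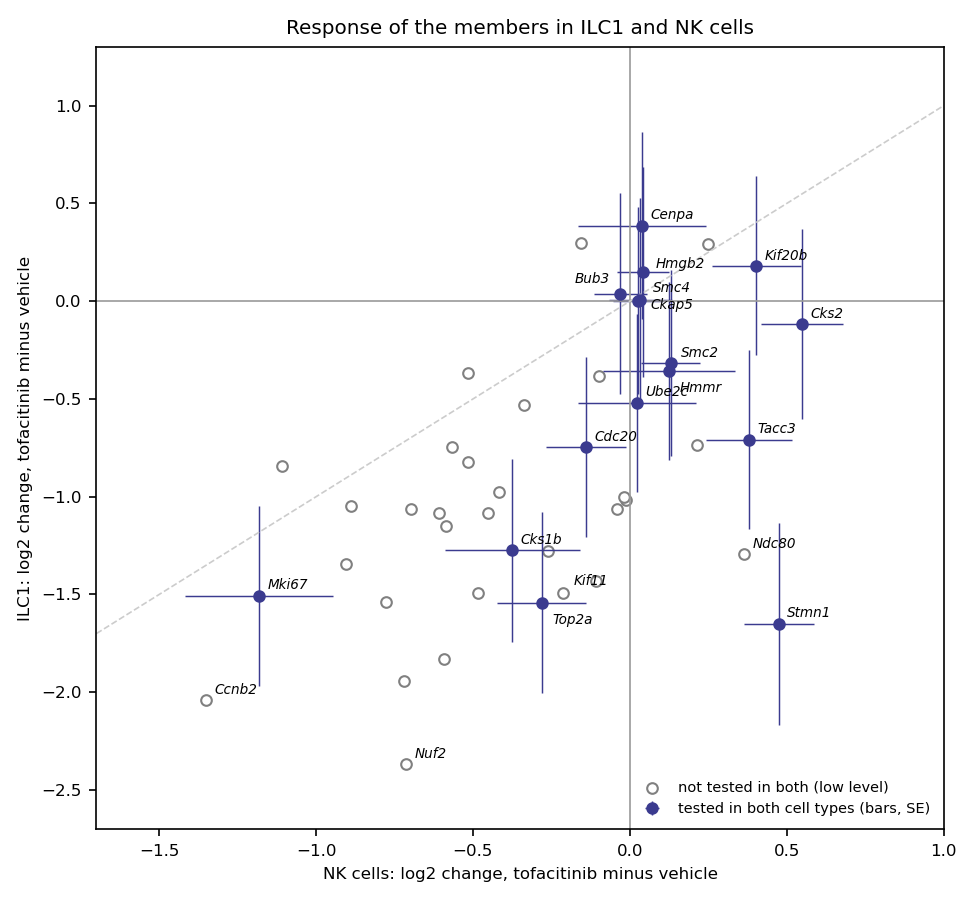
Log2 change (tofacitinib minus vehicle) of each member in NK cells (horizontal axis) and in ILC1 (vertical axis); filled points are the 16 members tested in both cell types with bars of 1 SE, open points the others, and the dashed line marks equal changes. Of the 45 members 38 lie below the dashed line, and Stmn1 lies farthest to the lower right.

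Other genes of the same processes were read from longer lists. With no filter on level, the tofacitinib ILC1 libraries lay below all vehicle libraries for 37 of 78 further mitotic genes and above them for 1 (3.56% and 3.53% of all genes), with a median log2 change of -0.57. In NK cells they lay below for 12 and above for 19 (13.7% and 15.3% of all genes). Of the 78, 32 were tested in ILC1 and 0 were called in either direction, with 1 lower and 0 higher at an unadjusted p under 0.05. Within runs limma called 1 lower and 1 higher, near the 2.34% and 1.99% of all genes tested. Passage of the filter through 1 group only was not counted for these longer lists. The lower one was Spc24, a subunit of the Ndc80 complex, with 3.38 and 1.58 RPKM in tofacitinib ILC1, against 5.56, 8.58 and 4.72 RPKM in vehicle ILC1. The higher one was Cdc25b, a phosphatase that activates Cdk1. Cdc25b had 6.60 and 11.9 RPKM in tofacitinib ILC1, against 5.78, 3.21 and 6.82 RPKM in vehicle ILC1, and a within-run change of 0.90 (SE 0.22, limma adjusted p = 0.00284). In NK cells Cdc25b was the 1 gene called among the 28 tested of this list, with 44.5 and 41.3 RPKM with tofacitinib, against 27.5, 28.5 and 24.9 RPKM with vehicle (log2 change 0.67, limma adjusted p = 0.00548). Over all genes tested in NK cells, 1.79% were called higher. Of 41 S phase genes, 18 lay below and 0 above in ILC1 with no filter, and 32 were tested. Limma called 2 lower and 0 higher with no term for the run, against 0.278% and 0.192% of all genes tested. The median change of the 32 in that fit was -0.37. Within runs it called 9 lower and 0 higher, against 2.34% and 1.99% of genes. The 2 called with no term for the run were Cdca7 and Rrm2. Cdca7, which takes part in DNA methylation, had 1.10 and 1.34 RPKM with tofacitinib, against 5.50, 3.85 and 6.39 RPKM with vehicle. It passed the filter only through the vehicle group, so its call rests on a gene let in by a high vehicle level. Rrm2, a subunit of ribonucleotide reductase, had 2.38 and 2.59 RPKM with tofacitinib, against 10.2, 6.10 and 9.65 RPKM with vehicle. In NK cells 26 S phase genes were tested, and the primase subunit Prim1 was the 1 called, higher with tofacitinib by 0.49 on the log2 scale (limma adjusted p = 0.0251). The share called higher over all genes tested there was the same 1.79%.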

How the data were processed

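RNA of 10 libraries (liver ILC1 and splenic NK cells, tofacitinib or vehicle) was sequenced as 50-bp single-end reads. Per the labels and methods, the authors called bases with CASAVA 1.8.2 (bcl2fastq is named in the methods), used TopHat2 2.1.1 for alignment to mm10 and Partek for RPKM, and these RPKM values were used as deposited. The gene annotation behind them is not given in the sources used here. The 2 tables of analysis of variance hold the authors' own comparisons and were not used. No columns of other samples were used. Read counts are not given with RPKM, so the errors printed are only from the spread between libraries, shared over genes.

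Log2(RPKM + 0.1) was tested in R 4.3.3 by limma 3.58.1, two-sided, with variances moderated along a trend on level. A gene entered if its mean exceeded 1 in either group, and 1296 names beginning Mir or Snor were left out. In ILC1 and in the joint fit of both cell types the variance followed the trend alone (infinite prior degrees of freedom). In NK cells the prior had 5.81. The members and lists were chosen with earlier results of these data known. All 45 members are named; values in every library are given for members called in any comparison or at the looser threshold, for Mki67 and for the most abundant member of each of 10 classes, and further ones were chosen after their values were seen. From the other lists up to 4 genes with the smallest p could be named. Replicate numbers were not used as pairs. In ILC1 the sample sheets give runs, and deviations of libraries that share a run correlated (r = 0.63 and 0.78), so the run is the block within ILC1. Deviations were taken from group means, so the 2 tofacitinib libraries mirror each other. These 2 values are thus not separate evidence of a run effect. In NK cells the sheets give replicate letters (r = -0.14 and -0.16). Alternatives covered the offset, filter, scaling, variance model, blocks and left-out libraries. Promoters were read from RefSeq tables of GRCm38.p6, and approximate reads used GENCODE exon lengths.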

Additional observations from a re-analysis of the deposited data

Results flagged for a closer look

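The response of Stmn1 to tofacitinib differed between the cell types. The log2 change in ILC1 minus that in NK cells was -2.12 (SE 0.50, limma adjusted p = 0.0123, 2 tofacitinib and 3 vehicle libraries per cell type), and it is singled out here because this difference itself passed its test. The variance in that fit came from the trend over all genes alone, so this SE and p-value do not measure the spread of Stmn1 itself. All 4 tofacitinib libraries show the direction, below the vehicle range in ILC1 and above it in NK cells. The call was lost when any single NK library, ILC1 tofacitinib replicate 1 or ILC1 vehicle replicate 1 was left out. It was also lost with no filter, with array weights for each cell type and with the replicate number as block.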

How the results depend on the processing

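The direction of the ILC1 result held in every alternative run: the median log2 change of the tested members (-0.73) was -1.002 with no filter and with the filter at -1, -0.34 with a filter on the mean over all libraries, and -0.99 to -0.61 when single libraries were left out. The count of members called lower in ILC1 (1) did not hold. It was 0 with no filter, with the mean filter and with each gene's own variance, 2 with robust variance, 3 with libraries scaled to the same median and with the filter at -1, 4 with quantile normalization, 12 with the run block, 9 without the run of tofacitinib replicate 1, and 0 to 8 with single libraries left out. At the looser threshold (10) it was 4 with the mean filter, 21 with the filter at -1 and 4 to 13 with single libraries left out. Within runs (12) it was 0 with no filter, 5 with the mean filter and 21 with the filter at -1, and no library could be left out.

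In NK cells the lower count (1) was 0 with no filter, the mean filter or each gene's own variance, 2 with the filter at -1, and 0 to 1 with single libraries left out. The higher count (2) was 1 with an offset of 0.01, the mean filter or the replicate letter as block. It was 0 with no filter, without a trend, with own variance or the filter at -1, and 0 to 1 with single vehicle libraries left out. At the looser threshold (1) it was 4 with no filter and with the filter at -1, and 0 with the mean filter. The median (0.04) was -0.21 with no filter, 0.12 with the replicate letter as block and -0.10 with the filter at -1. With single libraries left out it was 0.021 to 0.12. The count of responses that differed between cell types (1) was 0 with no filter or array weights. It was 3 with run and replicate letter as a block, and 0 to 1 with single vehicle libraries left out.

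With the labels' replicate number as a replicate block, 2 members were called lower and 3 higher in NK cells, 0 lower in ILC1 (1 at the looser threshold) and 0 differed between cell types. Same-numbered libraries correlated at 0.02 and 0.14 in NK cells and at 0.16 and -0.63 in ILC1. Deviations were taken from group means, so with 2 tofacitinib libraries each value mirrors that of the other tofacitinib library. The -0.63 is thus the mirror of the 0.63 within a run, and this check cannot separately decide whether the numbers pair libraries. The filter at -1 and the fit without the run of ILC1 tofacitinib replicate 1 were chosen after seeing the data. So was the block of run and replicate letter in the joint fit. The causes of these changes were not tested. Each group has 2 or 3 pools, and members under 1 RPKM rest on few reads.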
